A study of Mus musculus with 14 samples.

Results

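The MAP kinase phosphatases are dual-specificity enzymes that switch off the MAP kinases ERK, JNK and p38. Here they are the 9 genes Dusp1, Dusp2, Dusp4, Dusp5, Dusp6, Dusp7, Dusp8, Dusp10 and Dusp16, and their members on the array were taken by gene name. They have 12 probes among the 55681 non-control probes of a single-colour mouse expression array. All 12 were well above background on each of the 14 arrays and none was saturated, so all 9 genes entered the table of 32873 genes tested. Dusp7, Dusp8 and Dusp16 have 2 probes each, and the brighter one stands for the gene. A 10th family member, Dusp9, was measured as one of the other dual-specificity phosphatases.

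The arrays hold RNA of satellite cells, the stem cells of skeletal muscle, sorted from mouse muscle by flow cytometry. The sort kept cells with integrin alpha 7 and CD34 on their surface and discarded those with CD31, CD45, CD11b or Sca1. C57BL/6 mice were sampled at 3 ages: Young (2 to 3 months, 3 arrays), Old (22 to 24 months, 3 arrays) and Geriatric (29 to 30 months, 2 arrays). SAMP8 mice, a strain that ages fast, and SAMR1 mice, its resistant counterpart, were both sampled at 12 months with 3 arrays each. The labels call every sample a biological replicate and every mouse male, and do not say whether animals were pooled. The RNA was amplified before labelling, and the labels name no engineered allele in any group.

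Each MAP kinase is active when a threonine and a nearby tyrosine are both phosphorylated, and these phosphatases remove both phosphates. Most of the genes are themselves induced by MAP kinase signalling, so the family acts as negative feedback. Dusp6 and Dusp7 encode cytoplasmic enzymes that prefer ERK. Dusp1, Dusp2, Dusp4 and Dusp5 encode nuclear enzymes that are made quickly after stimulation, of which Dusp5 prefers ERK and Dusp1 also acts on p38 and JNK. Dusp8, Dusp10 and Dusp16 encode enzymes that prefer JNK and p38. In satellite cells, ERK and p38 signalling take part in the exit from quiescence and in the choice between renewal and differentiation.

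RefSeq start sites (GRCm38.p6) were matched by symbol for 8 of the 9 genes, and for 5 of them the start lies at the outer edge of the annotated gene. The 250 bases before the start are printed for the gene that changed with age (Dusp6) and for 2 early-response members that differ in the motifs they hold (Dusp1 and Dusp5), 5′ to 3′ on the strand of the gene.
Dusp6 (chr10:99262981-99263230, plus strand): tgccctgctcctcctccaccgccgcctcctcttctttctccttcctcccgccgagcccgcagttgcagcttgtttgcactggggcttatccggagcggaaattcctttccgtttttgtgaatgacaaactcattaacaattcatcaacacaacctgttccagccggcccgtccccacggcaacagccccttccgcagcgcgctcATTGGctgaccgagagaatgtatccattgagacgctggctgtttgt
Dusp1 (chr17:26508473-26508722, minus strand): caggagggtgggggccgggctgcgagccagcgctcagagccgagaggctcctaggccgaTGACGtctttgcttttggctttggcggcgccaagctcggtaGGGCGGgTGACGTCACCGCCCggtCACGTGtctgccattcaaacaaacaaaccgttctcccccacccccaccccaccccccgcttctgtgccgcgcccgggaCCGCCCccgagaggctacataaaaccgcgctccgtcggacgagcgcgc
Dusp5 (chr19:53528895-53529144, plus strand): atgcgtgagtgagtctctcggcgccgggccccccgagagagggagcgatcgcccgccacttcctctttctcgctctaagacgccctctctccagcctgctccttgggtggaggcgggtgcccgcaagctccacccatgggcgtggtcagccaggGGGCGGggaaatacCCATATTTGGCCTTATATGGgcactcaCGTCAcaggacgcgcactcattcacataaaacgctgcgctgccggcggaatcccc
Capitals mark matches, on either strand, to any of 9 motifs. The cAMP response element was searched as TGACGTCA. Its core, which lies within the full element, was searched as TGACG. The E-box was searched as CACGTG and the AP-1 site as TGANTCA. The GC box was searched as GGGCGG and the TATA box as TATAAA. The ETS site was searched as CCGGAA and the CCAAT box by those letters. The CArG box, which serum response factor binds, was searched by name.
The Dusp1 stretch held the full cAMP response element, which 1.55% of 32851 RefSeq promoters of this length hold, an E-box (6.02%) and GC boxes (32.7%). It also held a separate core of that element (17.8%). The Dusp5 stretch held 2 adjoining CArG boxes, where 1.47% of promoters hold at least 1, 1 cAMP response element core (17.8%) and 1 GC box (32.7%). The Dusp6 stretch held 1 CCAAT box (33.8%) and no match to the other 8 motifs, which says only that those letters are absent from this window.

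Several properties of the arrays bear on what follows. Between 77.1% and 88.8% of probes were well above background on an array, and the pairwise correlation over all tested genes was 0.945 to 0.976 within groups and 0.847 to 0.962 between groups. The median signal over background was 6.23 to 6.86 on the Young and Old arrays, and 8.03 and 8.06 on the Geriatric arrays. It was 6.47 to 7.25 in SAMP8 and 7.92 to 8.34 in SAMR1. The part of this difference in the values below was not tested. Sex-linked transcripts went against the labels: Xist was well above background on all Young and Old arrays and on neither Geriatric array, while Ddx3y, Uty and Kdm5d were well above background on all Geriatric, SAMP8 and SAMR1 arrays and on no Young or Old array. Age and this difference cannot be told apart in Geriatric versus Young and Geriatric versus Old. These Y-linked transcripts do not separate Old from Young or SAMP8 from SAMR1. Xist, well above background on all 3 SAMP8 arrays and on 1 of the 3 SAMR1 arrays, averaged -4.13 in SAMP8 and -6.76 in SAMR1, against 5.26 in Old and 5.69 in Young. All 12 satellite cell markers measured, Pax7 and Itga7 among them, were well above background on every array. Endothelial transcripts were present in all groups. Their summed signals, not scaled between arrays, were 17150 to 54190 in SAMP8 and 41970 to 84170 in SAMR1, against 7542 to 18670 over the C57BL/6 arrays. Tek was high in every group (group means of 3.13 to 4.13). The other endothelial markers all averaged higher in SAMP8 and SAMR1 than in any C57BL/6 group. Pecam1, for example, averaged 2.58 in SAMP8 and 3.19 in SAMR1, against -2.92 to -0.96 in the C57BL/6 groups. Among the leukocyte markers, Itgam, the gene of CD11b, averaged 7.45 to 8.31 over the groups, above Pax7 (3.54 to 4.23). Csf1r averaged 2.51 to 3.04. Every other leukocyte marker averaged below 0 in each group, Ptprc, the gene of CD45, at -2.07 to -1.77. Whether the Itgam signal comes from leukocytes was not tested. The arrays lay on 2 slides, each holding Young, Old, SAMP8 and SAMR1 arrays, and both Geriatric arrays lay on slide 2. In bulk RNA, fewer cells of a type and less RNA per cell cannot be told apart. All levels below are log2 signals relative to the array's own 75th percentile, and fold changes are differences of their group means.

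Dusp6 was the member that changed with age, and it fell in both Old and Geriatric satellite cells. Its probe, A_51_P502614, lies at chr10:98729985-98730044 (mm9, plus strand). The level was 1.73, 1.81 and 1.24 on the Young arrays, 0.46, 0.41 and 0.37 on the Old arrays, and 0.28 and 0.28 on the Geriatric arrays. Every Old and Geriatric array lay below every Young array, and the Old and Geriatric ranges did not overlap either. In Old cells it fell by 1.18 ± 0.22 on the log2 scale (SE, 3 against 3 arrays; 0.441 of the Young level), with an adjusted p of 0.0269 by limma over all genes. In Geriatric cells it fell by 1.32 ± 0.24 (SE, 2 against 3 arrays; 0.401 of the Young level), with an adjusted p of 0.0125 by limma. These comparisons share the Young arrays. The Geriatric mean was 0.14 below the Old mean, with a 95% interval of -0.67 to 0.40 and a limma adjusted p of 0.709, and 0.09 above it relative to the median of all genes. In that comparison 35.4% of all genes had every Geriatric array below every Old array.

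Relative to the median of all genes, which was 0.06 in Old versus Young and -0.18 in Geriatric versus Young, the Dusp6 differences were -1.24 and -1.14. Within slides, Old minus Young was -1.07 on slide 1 (1 Old against 2 Young arrays) and -1.40 on slide 2 (2 Old against 1 Young array), with limma adjusted p of 0.291 and 0.408. Within slide 2, Geriatric minus Young was -1.54, with a limma adjusted p of 0.255 (2 against 1 array). The call in Old versus Young was lost without Young 1, Young 2, Old 1 or Old 2 (adjusted p of 0.0665 to 0.104 by limma), and that in Geriatric versus Young without either Geriatric array (0.0763 and 0.0933). The difference itself ranged from -1.36 to -1.07 in Old versus Young and from -1.50 to -1.21 in Geriatric versus Young when each array was left out in turn. In both comparisons limma called 1 of 8 pericyte and smooth muscle markers as higher (Pdgfrb) and 1 as lower (Abcc9). Over all genes it called 1.44% and 4.19%. Pdgfrb averaged -4.35 in Young, -1.91 in Old and -1.7 in Geriatric, and Abcc9 averaged -1.03, -3.73 and -3.97. The fibroblast gene Dpt rose in Geriatric versus Young. No other cell type marker was called in these comparisons. The part of other cell types in the Dusp6 values was not tested.

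Dusp6 did not separate the strains. It was 1.35, 1.33 and 0.80 on the SAMP8 arrays and 1.46, 1.14 and 1.59 on the SAMR1 arrays, and the groups overlapped. SAMP8 minus SAMR1 was -0.23 ± 0.22 (SE, n = 3 each), with a 95% interval of -0.71 to 0.24 and a limma adjusted p of 0.900. The strain difference was set against the age differences in the same model. The Old versus Young difference minus the strain difference was -0.94 ± 0.31 (SE; limma p 0.0105, adjusted 0.267). The Geriatric versus Young difference minus the strain difference was -1.08 ± 0.33 (SE; limma p 0.0067, adjusted 0.144), so neither passed after adjustment over all genes. In the order of group means, Young (1.59 ± 0.31, SD), SAMR1 (1.40 ± 0.23) and SAMP8 (1.16 ± 0.31) overlapped as neighbours, and Old (0.41 ± 0.05) and Geriatric (0.28) lay below them.

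**Figure D1:**
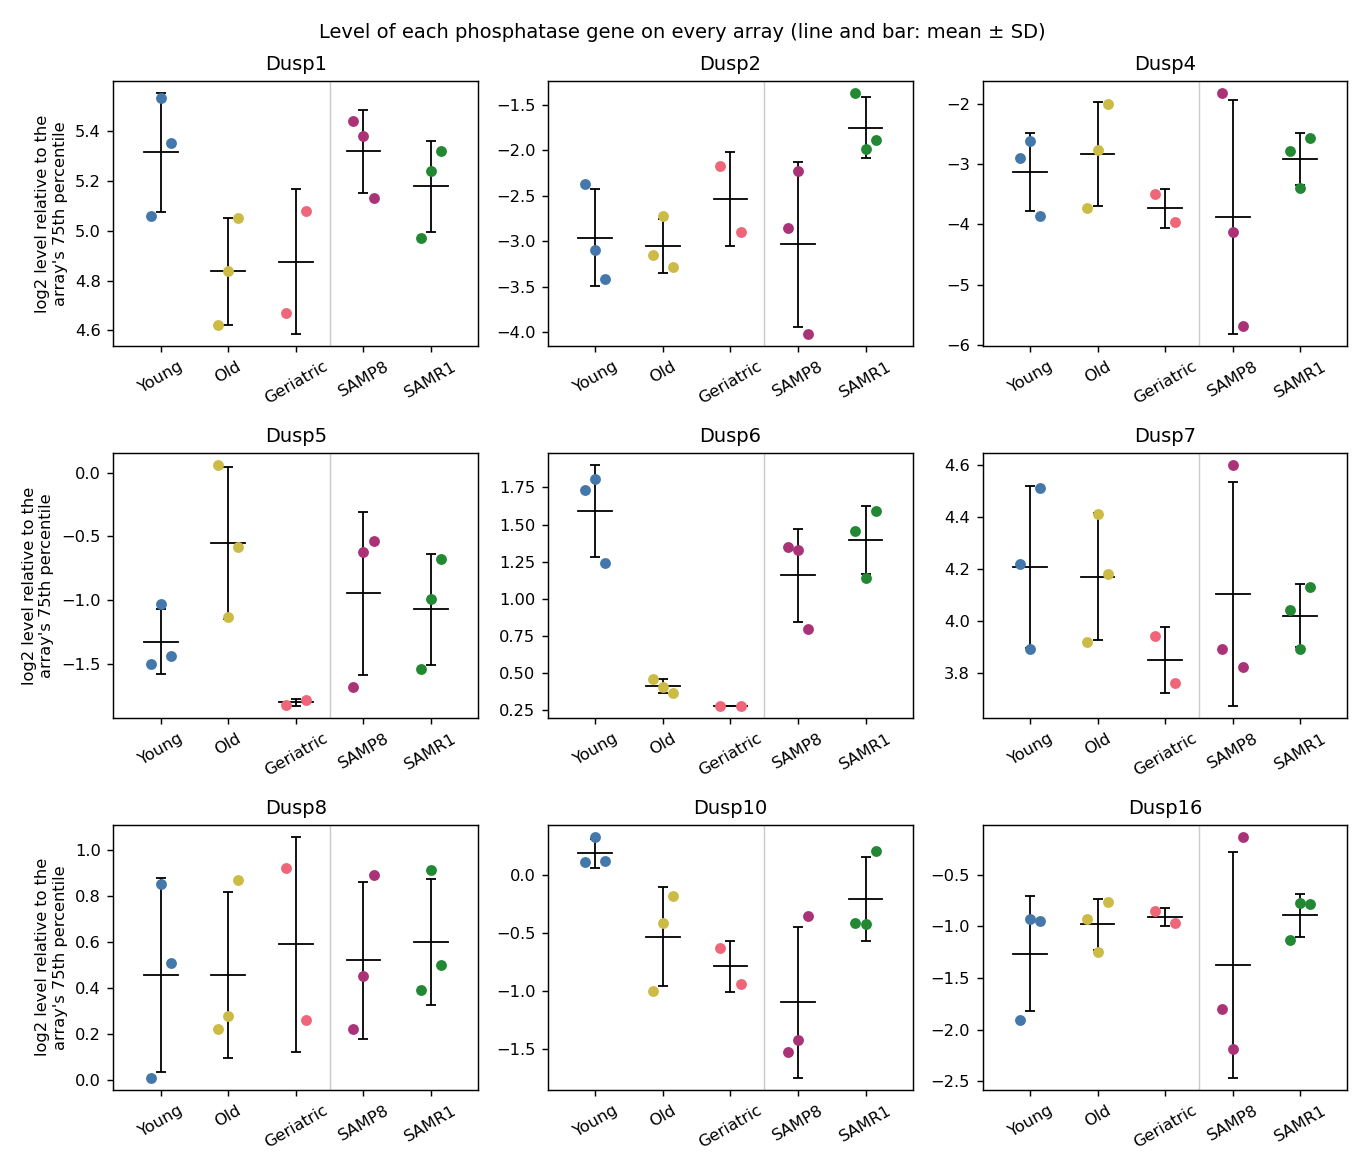
Level of each of the 9 genes on all 14 arrays, with 1 panel a gene. The y axis is the log2 signal relative to the array's 75th percentile and differs between panels, points are arrays, and lines with bars are group means ± SD. Dusp6 lies between 1.24 and 1.81 in Young and at or below 0.46 in Old and Geriatric, while most other panels show groups that overlap.

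Dusp7, the other cytoplasmic ERK phosphatase here, showed no call. Its brighter probe was 4.22, 3.89 and 4.51 in Young, 3.92, 4.41 and 4.18 in Old, 3.94 and 3.76 in Geriatric, 3.89, 4.60 and 3.82 in SAMP8, and 4.04, 3.89 and 4.13 in SAMR1. The groups overlapped in each comparison of Old, Young, SAMP8 and SAMR1. Old minus Young was -0.04 ± 0.25 (SE) and SAMP8 minus SAMR1 was 0.08 ± 0.25. Geriatric minus Young was -0.36 ± 0.28, of which -0.18 remained after the median of all genes was subtracted.

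The second Dusp7 probe gave other directions. The files map the pair to overlapping positions on chromosome 9 (mm9, plus strand; 106277943 to 106278000 for the brighter and 106277985 to 106278044 for the dimmer). The last 30 bases of the brighter and the first 30 of the dimmer are shown because they share 15 letters, in capitals.
A_55_P2000628, brighter, chr9: gacacacacacacatACACATATATATCCC
A_55_P1993836, dimmer, chr9: cACACATATATATCCCgagccagcaacggg
The brighter probe had 34 of its 60 bases in stretches of at least 6 that repeat a pair of letters, as many as 0.0557% of the array's probes, and the dimmer had 13 (1.38%). Its signal was 39.7 to 223 times that of the dimmer probe, depending on the array. The dimmer probe was 0.79 ± 0.36 higher in Geriatric than in Old when each of the 49930 kept probes was tested on its own (limma p 0.0467, adjusted 0.140), against -0.32 for the brighter one. Its levels were -1.42, -1.16 and -2.59 in SAMP8, -1.75, -1.97 and -2.10 in SAMR1, and -3.62 to -2.55 over the C57BL/6 arrays. The direction of Dusp7 in both Geriatric comparisons therefore depends on the probe.

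**Figure D2:**
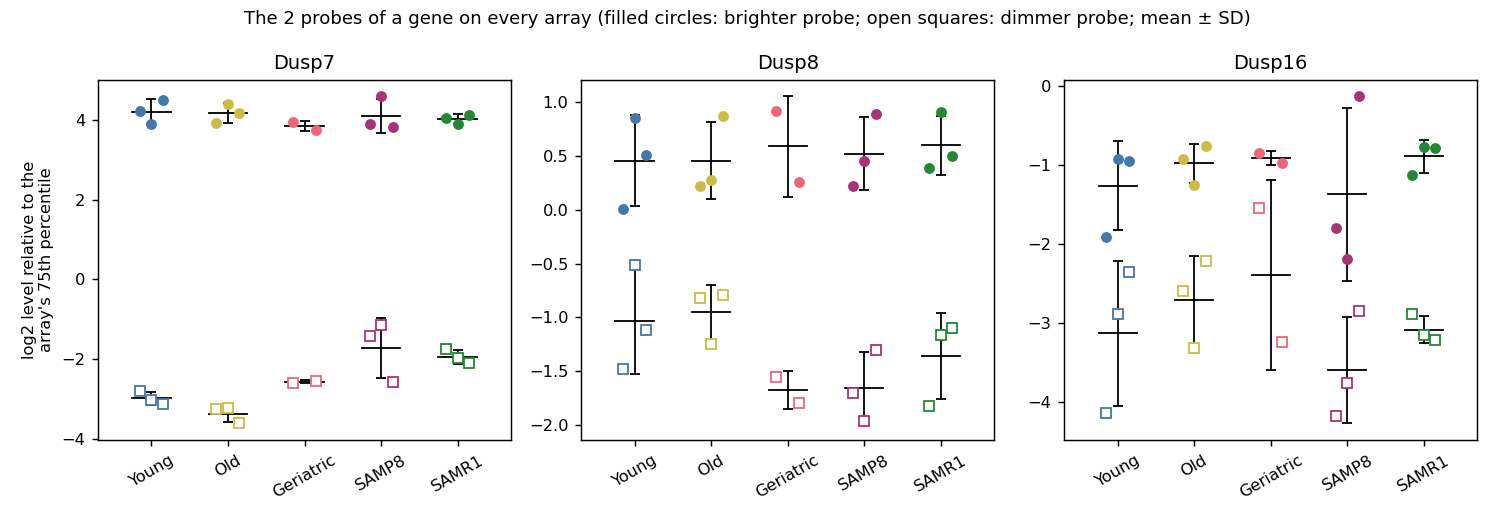
Both probes of Dusp7, Dusp8 and Dusp16 on all 14 arrays, as log2 signal relative to the array's 75th percentile. Filled circles are the brighter probe, open squares the dimmer one, and lines with bars are group means ± SD. The dimmer Dusp7 probe is higher in SAMP8 and SAMR1 than in Young and Old, a pattern the brighter one does not show.

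Among the nuclear early-response members, none passed the test. Dusp1 was 5.06, 5.53 and 5.35 in Young, 4.62, 4.84 and 5.05 in Old, and 4.67 and 5.08 in Geriatric. All 3 Old arrays lay below the 3 Young arrays, by a narrow gap, and the Geriatric arrays straddled the lowest Young array. Old minus Young was -0.47 ± 0.21 (SE; limma p 0.0405, adjusted 0.268), and Geriatric minus Young was -0.44 ± 0.23 (adjusted 0.283 by limma). In the strains Dusp1 was 5.44, 5.38 and 5.13 in SAMP8 against 4.97, 5.24 and 5.32 in SAMR1, a difference of 0.14 ± 0.20 with overlapping groups.

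Dusp5, the nuclear ERK phosphatase, was highest in Old. Its probe, A_55_P2063237, lies at chr19:53615682-53615741 (mm9, plus strand). The level was -1.50, -1.03 and -1.44 in Young, 0.06, -1.13 and -0.58 in Old, and -1.82 and -1.78 in Geriatric. Both Geriatric arrays lay below every Young and every Old array, and Old 2 fell inside the Young range. Geriatric minus Old was -1.25 ± 0.41 (SE; 0.42 of the Old level), or -1.03 relative to the median of all genes, with a limma adjusted p of 0.0538. It passed in 5 of 27 alternatives, with limma adjusted p ranging from 0.0335 without SAMP8 1 to 0.193 without Geriatric 3. Normexp with quantile normalization and the authors' table, both among the 5, gave the same values. Leaving out SAMP8 1, also among them, left the difference unchanged. The difference was -0.95 without Old 1 (limma adjusted p 0.156) and -1.54 without Old 2 (0.0380). Old minus Young was 0.77 ± 0.37 (adjusted p 0.320 by limma), 0.47 without Old 1 and 0.34 within slide 1. SAMP8 had -1.68, -0.62 and -0.54 and SAMR1 had -1.54, -0.99 and -0.68, which overlapped.

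Dusp2 and Dusp4 were dim and varied between arrays of a group. Dusp2 was -2.85, -2.23 and -4.02 in SAMP8 and -1.37, -1.99 and -1.89 in SAMR1, so all SAMP8 arrays were lower. SAMP8 minus SAMR1 was -1.28 ± 0.43 (SE; limma p 0.0124, adjusted 0.374), which did not pass. Over the ages Dusp2 ranged from -3.41 to -2.37 in Young, from -3.28 to -2.72 in Old and was -2.17 and -2.90 in Geriatric. Dusp4 was -1.82, -4.12 and -5.69 in SAMP8 against -2.78, -3.39 and -2.57 in SAMR1, and its SE of 0.79 in that comparison was the largest among the 9 genes. The array SAMP8 3, lowest in both genes, also had the lowest summed endothelial signal of the strain arrays (17150). Summed Schwann cell signal, also not scaled between arrays, was 910 to 4644 in SAMP8 and 6428 to 13910 in SAMR1. There was no call among the 5 Schwann or 8 endothelial markers. The part of these cells in the Dusp2 and Dusp4 values was not tested.

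Of the JNK and p38 phosphatases, Dusp10 had the lowest p-values. It was 0.11, 0.33 and 0.12 in Young, -1.0, -0.41 and -0.18 in Old, and -0.63 and -0.94 in Geriatric, so every Young array was above every older one. Old minus Young was -0.72 ± 0.33 (SE; limma adjusted p 0.299) and Geriatric minus Young was -0.97 ± 0.37 (limma p 0.0224, adjusted 0.158). In the strains it was -1.52, -1.42 and -0.35 in SAMP8 and -0.41, -0.42 and 0.21 in SAMR1. SAMP8 minus SAMR1 was -0.89 ± 0.33 (limma p 0.0201, adjusted 0.447), with SAMP8 3 inside the SAMR1 range.

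Dusp8 and Dusp16 gave small differences. Dusp8 averaged 0.46 ± 0.42 in Young, 0.45 ± 0.36 in Old and 0.59 ± 0.47 in Geriatric (SD, n = 3, 3 and 2), and 0.52 ± 0.34 in SAMP8 and 0.60 ± 0.28 in SAMR1 (SD, n = 3 each). Its 4 differences lay between -0.08 and 0.14, with an SE of 0.30 to 0.34. The dimmer Dusp8 probe had -0.63 ± 0.34 in Geriatric minus Young, against 0.13 ± 0.34 for the brighter, with limma adjusted p of 0.311 and 0.853 over all probes. Dusp16 was -1.91, -0.93 and -0.95 in Young, -0.93, -1.25 and -0.76 in Old, and -0.85 and -0.97 in Geriatric. Its SAMP8 arrays at -1.80, -2.19 and -0.13 spanned all 3 SAMR1 values of -1.13, -0.77 and -0.78, and SAMP8 minus SAMR1 was -0.48 ± 0.46. Both Dusp16 probes gave differences of the same sign in the 4 comparisons.

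Counted over the family, 1 of 9 members was called in Old versus Young, where 1.44% of all genes were called, and 1 of 9 in Geriatric versus Young, where 4.19% were. None of the 9 was called in Geriatric versus Old (19.9% of all genes) or in SAMP8 versus SAMR1 (0.45%). At an unadjusted limma p under 0.05 the counts were 2, 2, 1 and 2, against 16.9%, 21.9%, 35.8% and 8.33% of all genes in the same order of comparisons. The groups did not overlap, with the older or SAMP8 group lower, for 3 members in Old versus Young (8.56% of all genes), 3 in Geriatric versus Young (29.1%), 2 in Geriatric versus Old (35.4%) and 1 in SAMP8 versus SAMR1 (5.36%). The median difference of the members was -0.04, -0.44, -0.14 and -0.23, beside 0.06, -0.18, -0.22 and 0.01 over all genes. No member passed in the 2 tests of a difference between an age change and the strain change, where 0.371% and 1.73% of genes did. At an unadjusted limma p under 0.05 these tests had 1 and 2 members, against 11.6% and 16.3% of all genes.

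**Figure D3:**
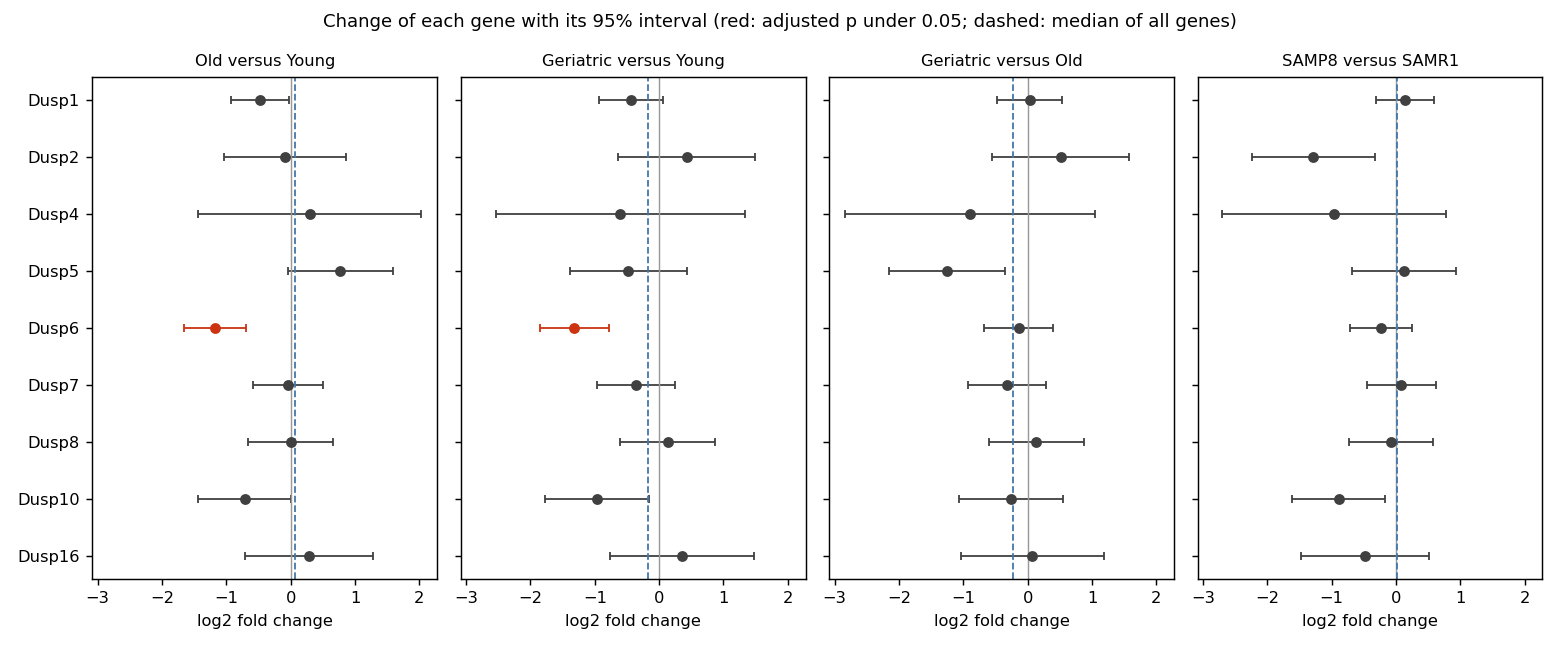
Log2 fold change of each gene in the 4 comparisons, with its 95% interval from limma. Red points passed an adjusted p of 0.05, and the dashed line is the median of all genes. Dusp6 at -1.18 and -1.32 is the single red point in each comparison with Young.

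The wider pathway was described through 6 lists that do not hold these 9 genes. Of 24 ERK-induced early and feedback genes, 1 fell in Old versus Young, where 1.44% of all genes were called. That gene was Spred2, an inhibitor of signalling to ERK, at -2.01, -1.56 and -1.51 in Old against -0.68, -0.64 and -0.71 in Young. It fell by 1.02 ± 0.20 (SE) with a limma adjusted p of 0.0344, and the call was lost in 11 of 28 alternatives. In Geriatric versus Young 0 of 24 passed (4.19% of all genes), with 7 at an unadjusted limma p under 0.05 (21.9% of all genes). Spry1, a feedback inhibitor of receptor tyrosine kinase signalling known for holding satellite cells quiescent, was 0.68 ± 0.32 lower in Old than in Young (adjusted p 0.316 by limma). It was 0.996 ± 0.362 higher in Geriatric than in Young (adjusted p 0.145). Etv5, an ETS factor that ERK induces, had -0.50 ± 0.21 in Old versus Young and -0.33 ± 0.23 in Geriatric versus Young, neither called by limma.

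In Geriatric versus Old, 5 of the 24 rose and 2 fell, where 19.9% of all genes were called. Spred2 was among those that rose, by 0.83 ± 0.22 (SE; limma adjusted p 0.0248), and its Geriatric versus Young difference was -0.19 (adjusted p 0.646). Fos, an early-response transcription factor, rose by 1.30 ± 0.21 (SE; limma adjusted p 0.00228), Spry1 by 1.68 ± 0.36 (0.00944) and Il17rd, a membrane inhibitor of fibroblast growth factor signalling, by 1.48 ± 0.31 (0.00836). Egr1 rose by 0.71 ± 0.20 (limma adjusted p 0.0309). Fosl1, a Fos relative, fell by 3.48 ± 0.67 (limma adjusted p 0.00564). The list median was 0.18, beside -0.22 over all genes. Age and the difference in sex-linked transcripts cannot be told apart in this comparison. Spry1 averaged 3.37 in Geriatric, 3.41 in SAMP8 and 3.32 in SAMR1, against 2.37 in Young and 1.69 in Old. In the same order, Fos averaged 4.93, 4.89 and 5.03, against 4.39 and 3.63, and Fosl1 -3.26, -3.37 and -3.85, against -1.67 and 0.22. Young Egr1 (6.46) and Spred2 (-0.68) lay nearer to Geriatric (6.51 and -0.87) than to Old (5.80 and -1.70).

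Among the kinases that the phosphatases act on, Mapk14, the main p38 gene, did not pass with age against Young. It differed by -0.49 ± 0.20 in Old versus Young and by 0.51 ± 0.22 in Geriatric versus Young (SE; limma adjusted p 0.239 and 0.210). In Geriatric versus Old it rose by 0.99 ± 0.22 (SE; limma adjusted p 0.0107). Of the 25 ERK pathway kinases and adaptors, 6 rose and 0 fell there, beside 19.9% of all genes called, the adaptor Gab1 among them by 1.60 ± 0.32 (SE; limma adjusted p 0.00671). Of the 26 JNK and p38 pathway genes, 5 rose, Mapkapk5 by 1.20 ± 0.27 among them, and 1 fell, the scaffold Mapk8ip2, by 1.14 ± 0.28 (SE; limma adjusted p 0.0103 and 0.0160). In the other 3 comparisons limma called no gene of either list as reported. At an unadjusted limma p under 0.05 the ERK list had 4, 4 and 1 genes, and the JNK and p38 list had 4, 4 and 2. Over all genes the shares were 16.9%, 21.9% and 8.33%, in the order Old versus Young, Geriatric versus Young and SAMP8 versus SAMR1. Other settings called 0 to 2 genes of each list in Old versus Young. In Geriatric versus Old, age and the difference in sex-linked transcripts cannot be told apart. Mapk14 averaged 1.81 in Geriatric, 1.78 in SAMP8 and 1.68 in SAMR1, against 1.3 in Young and 0.82 in Old. In the same order, Gab1 averaged 2.27, 1.99 and 1.8, against 1.09 and 0.66, and Mapkapk5 -0.67, -1.09 and -0.82, against -1.67 and -1.87. Young Mapk8ip2 (-1.22) lay nearer to Geriatric (-1.4) than to Old (-0.26).

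The other dual-specificity phosphatases gave 1 call among 16 measured, in Geriatric versus Old, where 19.9% of all genes were called. That gene, Dusp12, rose by 1.31 ± 0.28 (SE, limma adjusted p 0.00884). Dusp9, an ERK phosphatase, was well above background on all arrays and averaged -3.86 in Young, -3.27 in Old, -4.14 in Geriatric, -4.40 in SAMP8 and -4.01 in SAMR1, with no call. Among 9 other phosphatases of MAP kinases, 2 were called in Geriatric versus Old, beside 19.9% of all genes. Ppp2cb, a catalytic subunit of protein phosphatase PP2A, rose by 0.77 ± 0.24 (SE, limma adjusted p 0.0452), a call lost in 15 of 27 alternatives. Ptpn5, a tyrosine phosphatase of ERK and p38, fell by 5.74 ± 1.18 (SE, limma adjusted p 0.00763). Its Geriatric levels, -8.23 and -8.17, lay below the Old and Young means of Ddx3y, Uty and Kdm5d (-7.65 to -7.41). Those transcripts were not well above background there. The Ptpn5 difference ranged from -6.37 to -1.75 over the alternatives.

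Genes that tissue dissociation is known to induce had mostly negative differences in Old versus Young, as Dusp6 did. Of 23 measured early response and dissociation stress genes, 12 were lower in Old than in Young at an unadjusted limma p under 0.05 and none was higher, where 16.9% of all genes had such a p in either direction. After adjustment 0 were called by limma, 1 with normexp and quantile normalization and 6 with slide as a block, and the median was -0.50 beside 0.06 over all genes. Their mean level was 4.03, 3.88 and 4.14 on the Old arrays, against 4.35, 4.70 and 4.42 on the Young arrays, and the groups did not overlap. On the Geriatric arrays it was 4.33 and 4.11, the higher close to the lowest Young array. The list median was -0.17 in Geriatric versus Young, beside -0.18 over all genes, and 0.18 in Geriatric versus Old, beside -0.22. In Geriatric versus Young 2 were called, where 4.19% of all genes were. Those were Nr4a2, an orphan nuclear receptor, which fell by 1.85 ± 0.23 (SE, limma adjusted p 0.00166), and the small heat shock gene Hspb1. Hspb1 fell by 1.05 ± 0.24 (SE, limma adjusted p 0.0317). Over 27 alternatives the call was lost in 1 for Nr4a2 and in 13 for Hspb1. In SAMP8 the mean level of the list was 4.26, 4.24 and 4.54, against 4.39, 4.47 and 4.42 in SAMR1. The part of dissociation in the Dusp6 and Dusp1 values was not tested.

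**Figure D4:**
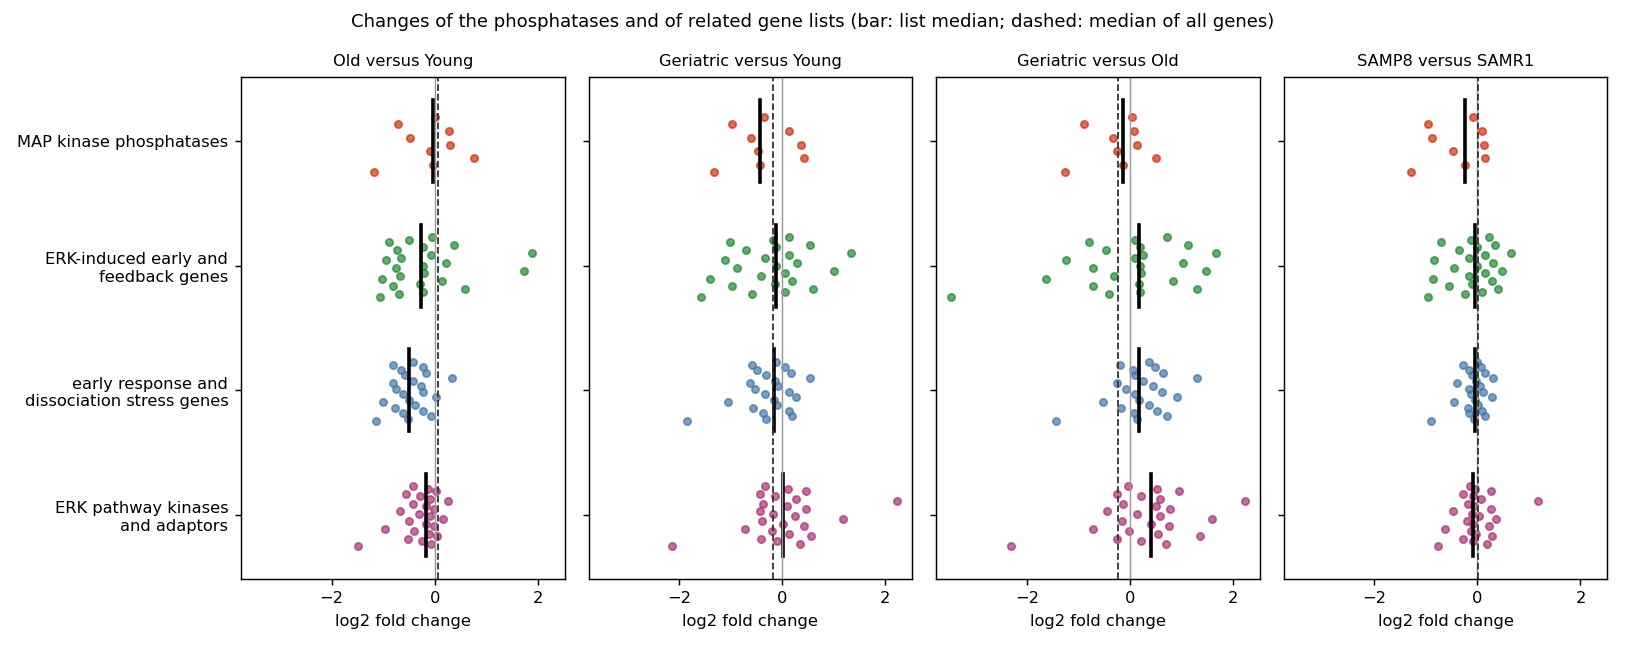
Log2 fold changes of the 9 phosphatases and of 3 gene lists in the 4 comparisons. Points are genes, black bars list medians and dashed lines the median of all genes. In Old versus Young the early response and dissociation stress genes lie mostly below 0 (median -0.50), and in Geriatric versus Old the ERK pathway kinases and adaptors have a median of 0.40.

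The genes whose levels ran closest to each member were found over the 14 arrays, after each gene's mean was subtracted, for the 6 members whose SD over the arrays was at least 0.5. Of 16853 candidates, those closest to Dusp6 were Hspb1, with a root mean square difference of 0.29, and the collagen lysyl hydroxylase gene Plod1, with 0.32. Those closest to Dusp5 were Plac8 (0.32) and Kcne3 (0.37), and those closest to Dusp10 were Ift140 and Nsun5 (both 0.29). Dusp16 ran closest to Epor (0.25), Dusp2 to Pparg (0.36) and B4galt4 (0.38), and Dusp4 to Bloc1s3 (0.55) and Tspan18 (0.62). The arrays behind these values share groups and slides, and the values describe likeness of level alone.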

How the data were processed

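RNA of sorted satellite cells was amplified and hybridised, labelled with Cy3, to 14 arrays, per the labels' protocols. The files deposited by the authors hold spot intensity values read with Agilent Feature Extraction 10.7.3.1 (processed signal, background-corrected), per the file headers, which also give probe positions in mm9. A deposited table of log2 values per probe differed by at most 1.17e-04 from normexp background correction (offset 50) with quantile normalization, and its column medians were all 7.8. Its scale, centring and direction are settled by that match.

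From the processed intensity, log2 values minus each array's 75th percentile were computed. Outlier spots (94 to 969 an array, the most on Geriatric 1) were left out. A probe was kept where 2 or more arrays of any group measured it well above background (49930 probes), and a gene took its kept probe with the highest mean. The test was limma's (version 3.58.1, under R 4.3.3), with 1 mean per group over all 14 arrays and Benjamini-Hochberg adjustment over 32873 genes at 0.05, two-sided. Arrays are the samples the labels call biological replicates. The script was tested on simulated data, in which the planted changes were larger than those of Dusp6. Slides were read from the file headers. The number of arrays limits the precision.

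The genes named besides the 9 were, of each list and comparison, up to 3 called genes with the smallest p, plus Dusp9, Fos, Egr1, Spry1, Etv5, Mapk14 and other fixed genes, and for each member with an SD of at least 0.5 the 2 genes closest to it. A few genes that this rule selects are not reported here. The members and lists were chosen with earlier results of these data known. Pdgfra, Hspa1b and Dusp21 were not measured under these names. Promoter letters come from RefSeq tables of GRCm38.p6; no annotation of mm9 was used here, so probes were not assigned to exons. Alternatives covered normalization, filter, probe choice, slide, replicate number, array weights and left-out arrays.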

Additional observations from a re-analysis of the deposited data

How the results depend on the processing

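No direction of Dusp6 turned in Old versus Young (28 alternatives) or Geriatric versus Young (27), but many of these settings could not turn it. The filter, the probe choice, the fit of only 2 groups and arrays left out of groups not compared all left its difference unchanged. The authors' table repeated normexp with quantile normalization. The count of members called in Old versus Young, 1 as reported, was 0 within slide 1, within slide 2, with the replicate block and with only those 2 groups fitted, and 0 to 1 with each array left out in turn. In Geriatric versus Young, 1 as reported, it was 0 within slide 2 and with only those 2 groups, and 0 to 1 with each array left out. In Geriatric versus Old, 0 as reported, it was 1 (Dusp5) with normexp and quantile normalization, in the authors' deposited table and with slide as a block, and 0 to 1 with each array left out. In SAMP8 versus SAMR1 it was 0 throughout. Over all genes tested, the count called in Old versus Young was 472 as reported, 773 with normexp and quantile normalization, 729 with slide as a block, 237 with the replicate block, 43 with only those groups, 0 within either slide and 85 to 793 with each array left out. In Geriatric versus Young it was 1377, and 2 to 2570 over the alternatives; in Geriatric versus Old 6557, and 1554 to 8981; in SAMP8 versus SAMR1 148, and 0 to 250. Among the lists, the alternatives called 0 to 2 ERK pathway genes, 0 to 2 JNK and p38 pathway genes, 0 to 5 ERK-induced genes and 0 to 6 early response genes in Old versus Young. In Geriatric versus Old the same lists had 0 to 7, 0 to 7, 1 to 8 and 1 to 7. Fits on fewer arrays have fewer residual degrees of freedom; the cause of the other changes was not tested. With the replicate block, Dusp6 in Old versus Young kept its difference of -1.18 with a limma adjusted p of 0.0566. Replicate numbers were not taken as pairs in the reported fit. Same-numbered Old and Young arrays correlated at -0.26 to -0.21 in their deviations from the group means. Those arrays lay on different slides, so the correlations cannot decide whether the numbers mark pairs.

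Members near 0 changed sign. In Old versus Young, Dusp2 was 0.17 within slide 1 and 0.10 when slide was a block; Dusp4 was -0.052 after quantile normalization and -0.24 within slide 2; Dusp7 was 0.11 with slide as a block, 0.044 within slide 1 and 0.16 within slide 2. Dusp8 was 0.010 after quantile normalization, 0.007 with normexp and in the authors' table, 0.042 as the mean of its probes, 0.017 within slide 1 and 0.008 with array weights. Leaving out arrays gave -0.31 to 0.21 for Dusp2, -0.12 to 0.74 for Dusp4, -0.20 to 0.11 for Dusp7, -0.22 to 0.20 for Dusp8 and -0.039 to 0.45 for Dusp16. In Geriatric versus Young, Dusp7 was 0.026 as the mean of its probes and 0.41 by its dimmer probe, an alternative chosen after seeing the data. Dusp8 was -0.25 as the mean of its probes, -0.10 with slide as a block, -0.26 within slide 2 and -0.20 to 0.47 with arrays left out, and Dusp16 was -0.027 with slide as a block. In Geriatric versus Old, Dusp7 was 0.24 as the mean of its probes and 0.79 by its dimmer probe; Dusp8 was -0.29 as the mean of its probes and -0.20 to 0.47 with arrays left out. Dusp16 was -0.12 with slide as a block, -0.061 within slide 2, -0.004 with the replicate block and -0.061 to 0.19 with arrays left out, and Dusp1 was -0.17 to 0.24. In SAMP8 versus SAMR1, Dusp5 was -0.12 within slide 2, -0.053 with array weights and -0.11 to 0.49 with arrays left out; Dusp7 was -0.034, -0.022 and -0.16 to 0.23 under the same. Dusp8 was 0.053 with normexp and in the authors' table, 0.006 within slide 1 and -0.27 to 0.076 with arrays left out.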
